A study of Caenorhabditis elegans with 6 samples.

Results

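The DNA replication genes described here are 32 *C. elegans* genes that encode the licensing factors, helicase, primase and polymerase subunits, clamp, ligase and ribonucleotide reductase of the replication fork. They were chosen by name for their function, with earlier results of these libraries known. All 32 were found among the 20362 genes of the deposited count table, and all 32 were among the 13736 genes that passed the filter on low counts. The question put to them was whether moderate overexpression of *grh-1*, which encodes a Grainyhead transcription factor linked to epithelia and lifespan, changed the level of replication transcripts.

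RNA was sequenced from whole nematodes of wild-type N2 Bristol (WT, 3 libraries) and of *grh-1* OEx line 1 (3 libraries). Eggs of both genotypes developed for 64 h at 20 °C on *E. coli* OP50 into young adults, which were then kept for another 48 h under the same conditions. *grh-1* OEx carries *hsp-16.2*p::*grh-1*::*gfp*, the *grh-1* coding sequence fused to *gfp* under a heat shock promoter, and received no heat shock. It was made by bombardment of an *unc-119* mutant strain and backcrossed to N2, so that all 3 libraries of this group come from 1 line and effects of the line cannot be told apart from effects of *grh-1*.

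The libraries held 14409044 to 25535026 counts, and the 32 genes took between 0.678% and 0.767% of them. Single replication genes had between 606 and 19933 raw counts in a library. Levels are given as CPM, that is, counts put on 1 scale by library size and TMM factor. In the order of replicates 1, 2 and 3, *grh-1* had 7.65, 9.69 and 6.52 CPM in *grh-1* OEx, against 4.997, 5.63 and 6.17 CPM in WT. The groups did not overlap, but the log2 fold change of 0.51 (adjusted p = 0.709 by edgeR's quasi-likelihood test) did not pass across all genes. *unc-119*, whose wild-type copy serves as the marker in such bombardments, was higher at a log2 fold change of 1.91 (adjusted p = 6.2e-05).

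Replication begins when the origin recognition complex, CDC-6 and CDT-1 load the MCM helicase onto DNA. The GINS complex then helps to activate the helicase, primase and polymerase α start each strand, and polymerase ε, the clamp PCNA and its loader RFC carry synthesis forward while RPA covers single-stranded DNA. Flap endonuclease and ligase join the Okazaki fragments, and ribonucleotide reductase supplies the deoxynucleotides. In an adult hermaphrodite most somatic cells have stopped dividing, and the germline and the embryos still held in the uterus are the main sites of DNA replication. Oocytes are also loaded with maternal transcripts, replication transcripts among them.

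None of the 32 replication genes was called higher or lower in *grh-1* OEx at an adjusted p under 0.05, while 0.146% of all genes tested were called higher and 0.298% lower. Only *pole-2*, a subunit of DNA polymerase ε, had an unadjusted p under 0.05, which 6.62% of all genes tested reached. *pole-2* was also the only replication gene whose 3 libraries of *grh-1* OEx did not overlap the 3 of WT, a separation seen in 9.53% of all genes tested. The 32 genes had a median log2 fold change of -0.03 (quartiles -0.08 and 0.03), with 12 values above 0 and 20 below. Over all genes tested the median was -0.01, with quartiles at -0.14 and 0.11.

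How large a change these libraries leave room for was read from the 95% intervals of the edgeR fit. All 32 intervals lay within 1 on the log2 scale, that is within a doubling or halving, as did those of 80.3% of all genes tested. For 20 replication genes the interval lay within 0.5, against 38.8% of all genes. Without *pole-2* the bounds ran from -0.64, a 0.642-fold level, to 0.64, a 1.56-fold level. These are the widest bounds of the 31 other genes, and the intervals of most were narrower. The biological coefficient of variation, the spread between libraries of a group beyond counting error, was 14.3% for the median replication gene (11.5% to 20.2%) and 18.3% for the median gene tested.

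**Figure D1:**
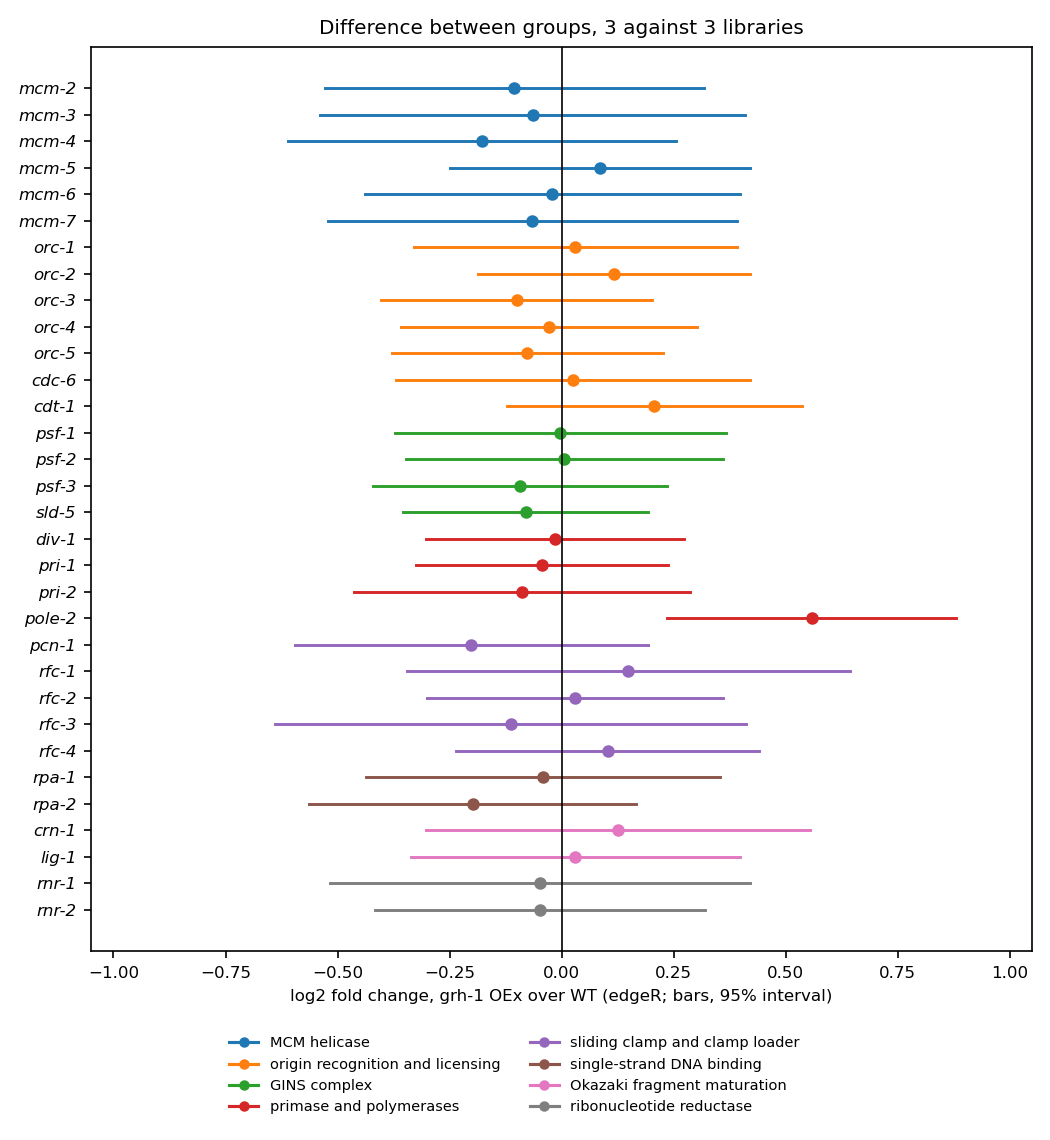
Log2 fold change of *grh-1* OEx over WT (x axis) for the 32 replication genes, coloured by role, with points for the edgeR estimate and bars for its 95% interval, 3 libraries in each group. All intervals but that of *pole-2*, at 0.56, include 0.

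The replication genes were among the well expressed genes of these nematodes. Their levels, as CPM per kb of annotated transcript averaged over the 6 libraries, had a median of 112, against 13.2 for all genes tested, and the median replication gene stood at the 90.4th percentile. They covered a 21.6-fold range from *rnr-2*, the small subunit of ribonucleotide reductase, at 618 CPM per kb down to the licensing factor gene *cdt-1* at 28.6. Along this order 29 of 31 neighbouring genes overlapped in the range of their libraries, and the exceptions were the steps from *pcn-1* to *rpa-2* and from *sld-5* to *cdt-1*. Genes of 1 complex were not always at 1 level. The MCM genes lay close together at 132 to 179 CPM per kb, while the GINS genes ran from 37.5 to 152 and the clamp loader genes from *rfc-2* at 71.7 to *rfc-4* at 175. These levels use the deposited lengths, and ranks of nearby genes depend on that choice. In the Ensembl annotation *pri-1* has 1328 exon bases against 855 deposited, *lig-1* 2424 against 1536 and *rfc-1* 2854 against 2634. Other genes differ as well, among them *mcm-2* at 2827 against 2119, *mcm-4* at 2615 against 1894 and *orc-5* at 1272 against 834. Whether the MCM genes lie as close together with the Ensembl lengths was not tested.

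**Figure D2:**
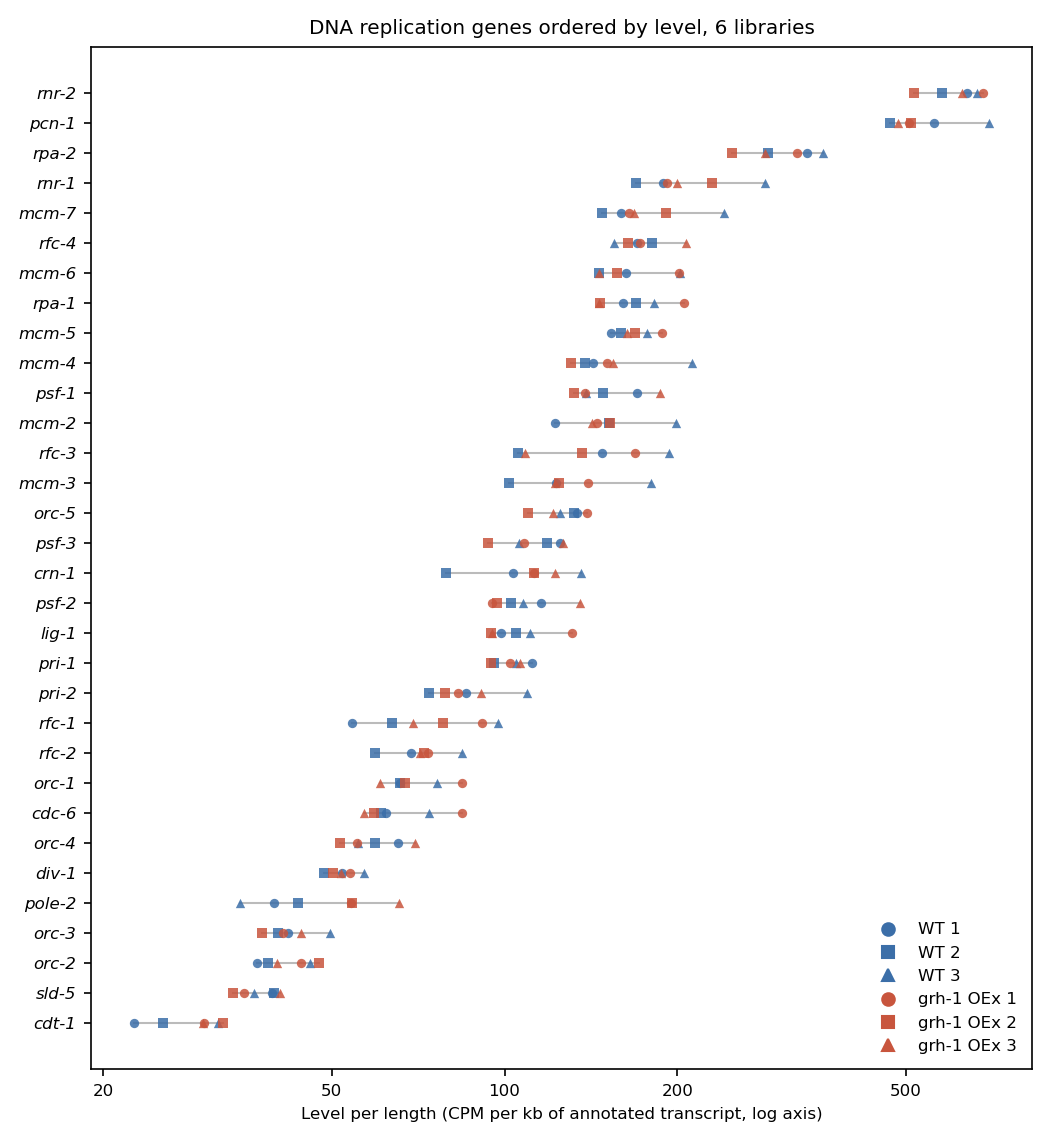
Level of each replication gene in the 6 libraries, in CPM per kb of annotated transcript on a log axis, ordered by the mean, with WT in blue, *grh-1* OEx in red, 1 marker shape per replicate and a grey line over the range. *rnr-2* and *pcn-1* are at the top at 618 and 539 CPM per kb, and *cdt-1* is at the bottom at 28.6.

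The 6 MCM helicase genes summed to 2225 ± 473 CPM in WT and 2149 ± 111 CPM in *grh-1* OEx (SD, n = 3 each), and none differed between the groups beyond the spread of the libraries. By library, always in the order of replicates 1, 2 and 3, *mcm-2* had 259, 322 and 421 CPM in WT and 307, 324 and 301 CPM in *grh-1* OEx. *mcm-3* had 330, 273 and 483 CPM in WT and 375, 334 and 329 CPM in *grh-1* OEx. *mcm-4* had 271, 261 and 402 CPM in WT and 286, 247 and 293 CPM in *grh-1* OEx. In each of these WT replicate 3 was the highest of the 6 libraries, and the *grh-1* OEx libraries lay within or near the range of the other WT libraries.

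*mcm-5* was the MCM gene with the smallest excess in WT replicate 3, with 372, 388 and 431 CPM in WT and 457, 410 and 397 CPM in *grh-1* OEx. *mcm-6* had 355, 318 and 441 CPM in WT and 438, 342 and 318 CPM in *grh-1* OEx. *mcm-7* had 392, 363 and 592 CPM in WT and 405, 469 and 414 CPM in *grh-1* OEx. The 6 proteins form 1 ring, and their log2 fold changes ran from -0.18 for *mcm-4* (standard error 0.19) to 0.09 for *mcm-5* (standard error 0.15), with the adjusted p of each at 1.000 in edgeR's quasi-likelihood test.

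Among the genes that mark and license origins, *orc-5*, of the origin recognition complex, had the highest level per deposited length. The lowest was *cdt-1*, which brings the MCM helicase to the origin. *orc-5* had 111, 110 and 104 CPM in WT and 116, 91.7 and 101.4 CPM in *grh-1* OEx. *cdt-1* had 58.01, 65.3 and 81.2 CPM in WT and 76.8, 82.9 and 76.5 CPM in *grh-1* OEx, so that WT replicate 3 fell among the *grh-1* OEx libraries and the groups overlapped. *cdt-1* had the second smallest p of the 32 genes, with a log2 fold change of 0.21 (95% interval -0.12 to 0.54, adjusted p = 0.979 by edgeR's quasi-likelihood test). The remaining origin genes *orc-1*, *orc-2*, *orc-3*, *orc-4* and *cdc-6*, the loader of the helicase, had log2 fold changes from -0.10 for *orc-3* to 0.12 for *orc-2*. *orc-1* and *orc-4* lie on the same strand of chromosome III with 111 bases between them in the Ensembl annotation of WBcel235, and their values of 0.03 and -0.03 lay on either side of 0.

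The 4 GINS genes summed to 298 ± 22.001 CPM in WT and 291 ± 49.6 CPM in *grh-1* OEx (SD, n = 3 each). *psf-1* was the highest per length, with 120, 105 and 97.5 CPM in WT and 96.9, 93.0 and 131 CPM in *grh-1* OEx. *sld-5* was the lowest, with 40.9, 41.3 and 38.1 CPM in WT and 36.6, 35.05 and 42.2 CPM in *grh-1* OEx. In both of these, and in *psf-2* and *psf-3*, *grh-1* OEx replicate 3 was the highest library. The GINS log2 fold changes lay between -0.09 for *psf-3* and 0.01 for *psf-2*.

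Of the genes that start DNA strands, the small primase subunit gene *pri-1* was the highest per deposited length, at 95.6, 81.9 and 89.4 CPM in WT and 87.2, 80.9 and 90.8 CPM in *grh-1* OEx. *div-1*, a subunit of the polymerase α primase complex, was the steadiest replication gene, with its highest library 1.17 times its lowest. The large primase subunit gene *pri-2* had a log2 fold change of -0.09, and the values of *pri-1* and *div-1* were -0.04 and -0.02.

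*pole-2* was the only replication gene that stood apart. It had 75.4, 83.2 and 65.9 CPM in WT and 103, 103 and 125 CPM in *grh-1* OEx. Every *grh-1* OEx library was above every WT library, and among the 32 genes its highest library exceeded its lowest the most, by 1.89 times. The log2 fold change was 0.56 (standard error 0.14, 95% interval 0.23 to 0.88), which is a 1.47-fold level. The p of 0.0033 became an adjusted p of 0.266 by edgeR over all genes tested, so that *pole-2* did not pass the threshold. With DESeq2 the adjusted p was 0.0367, the only setting of 14 alternatives in which a replication gene was called. An exact two-sided permutation test gave p = 0.1, the smallest that 3 against 3 libraries allow. Any gene whose groups do not overlap gets this value, so that it adds nothing to the separation.

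*pole-2* lies on the minus strand of chromosome IV, from 8682236 to 8686610 in WBcel235. It is the 1 replication gene inside a stretch that also holds the *pmk* genes of the p38 MAP kinase family, a stretch that had been drawn from genes higher in these same *grh-1* OEx libraries. There, the other 123 genes tested, whose starts run from 8123105 (*F42G8.7*) to 8773977 (*C33D9.6*), had their median log2 fold change at 0.46, with 88 of them above 0 and 35 below. 15 were called higher and 1 lower, the core histone gene *his-32*. Since the stretch was chosen for its higher genes, these counts are a description. The other 2141 genes tested on chromosome IV had a median of -0.03 and 0 called higher in the edgeR test. The 4 other replication genes on chromosome IV, *pcn-1*, *rfc-2*, *rfc-3* and *orc-5*, lie outside the stretch and had values from -0.20 to 0.03.

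Within 50 kb of *pole-2*, 16 other genes were tested, with 12 above 0 and 4 below, values from -0.56 to 3.48 and their median log2 fold change at 0.49. Of these, *hst-1*, a heparan sulfate sulfotransferase gene, was called higher (0.95, adjusted p = 0.0222), as was *C49C8.1* (3.48, adjusted p = 0.0228). *F08B4.7*, which follows upstream of *pole-2* on the same strand, had 106, 108 and 89.2 CPM in WT and 139, 129 and 167 CPM in *grh-1* OEx, a log2 fold change of 0.52 (adjusted p = 0.370). As in *pole-2*, its lowest library was WT replicate 3 and its highest *grh-1* OEx replicate 3. The part of this stretch in the values of *pole-2* was not tested.

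**Figure D3:**
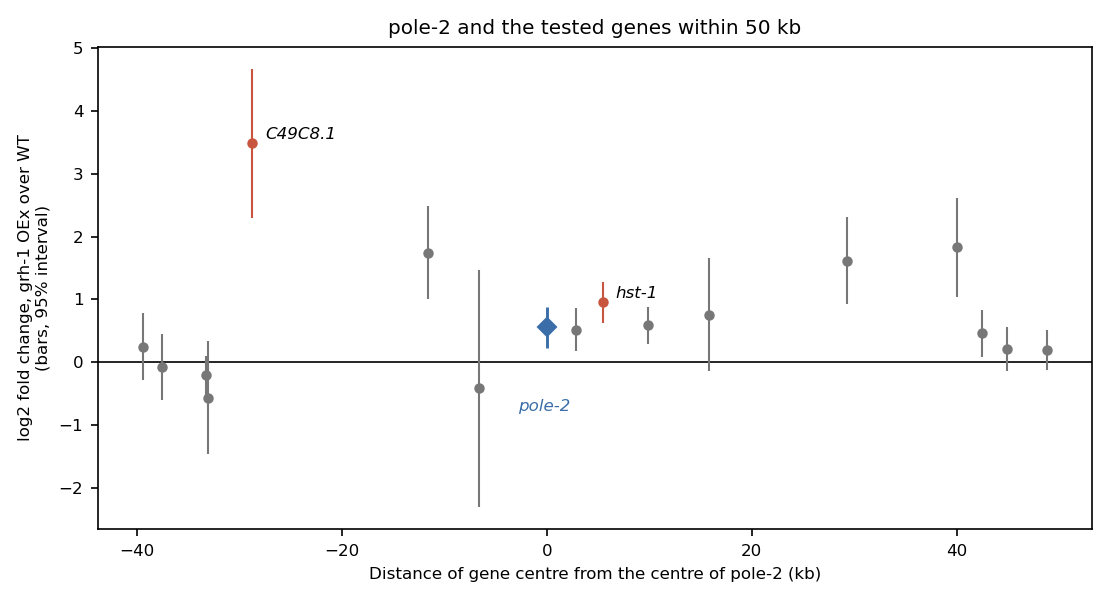
Log2 fold change of *grh-1* OEx over WT (y axis, bars for the 95% interval) for *pole-2* (blue diamond, 0.56) and the 16 other tested genes within 50 kb, against the distance of each gene's centre from that of *pole-2* in kb. Genes called higher by edgeR are red (*C49C8.1* and *hst-1*) and the others grey, and 12 of the 16 lie above 0.

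*pole-2* has a listed match to the GRH-1 binding motif WCHGGTTT. The search for this motif had covered only genes called different between these same groups, so that a replication gene could be listed only through its difference, and the lack of a match for the other replication genes says nothing about them. The match is shown because *pole-2* is the gene that stood apart. With the listed coordinates taken as WBcel235, it lies at IV:8686242-8686249 on the minus strand. This is in intron 3 of *pole-2* by the Ensembl annotation and 361 bases inside the annotated 5′ end. The match was found by both motif tools used, which place it 1 base apart. The capitals mark the whole match, which was not checked here against the genome sequence.

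*pole-2* GRH-1 motif match: TCTGGTTT

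A match is a description of letters and not of binding, which was not measured in these libraries.

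The sliding clamp gene *pcn-1*, which encodes PCNA, had the most negative value of the replication genes. It had 559, 470 and 699 CPM in WT and 507, 510 and 485 CPM in *grh-1* OEx, and all *grh-1* OEx libraries fell inside the range of WT (log2 fold change -0.20, 95% interval -0.60 to 0.19). *rfc-2*, the clamp loader gene lowest per deposited length, had 76.0, 65.8 and 93.3 CPM in WT and 81.3, 79.9 and 78.8 CPM in *grh-1* OEx. Of the other clamp loader genes, *rfc-1* and *rfc-4* had values of 0.15 and 0.10 and *rfc-3* of -0.11. *rfc-3* and *rfc-1* were the most variable of the 32 genes between libraries of a group, at coefficients of variation of 20.2% and 19.1%.

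Of the 2 genes for RPA, which covers single-stranded DNA, *rpa-2* had the third smallest p. It had 338, 289 and 360 CPM in WT and 324, 250 and 285 CPM in *grh-1* OEx, with overlapping groups and a log2 fold change of -0.20 (95% interval -0.56 to 0.17). *rpa-1*, the large subunit gene, had 347, 366 and 392 CPM in WT and 443, 316 and 315 CPM in *grh-1* OEx (-0.04). *grh-1* OEx replicate 1 was the highest library for *rpa-1*, and WT replicate 3 for *rpa-2*.

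The 2 genes for Okazaki fragment maturation were close in level per deposited length, with *crn-1* at 111 and *lig-1* at 106 CPM per kb. This closeness depends on the length used, since *lig-1* has 2424 exon bases in the Ensembl annotation against 1536 deposited. For *crn-1* these are 1317 and 1327 bases. *crn-1*, the flap endonuclease gene, had 137, 105 and 180 CPM in WT and 149, 149 and 163 CPM in *grh-1* OEx (0.13). *lig-1*, the DNA ligase gene, had 152, 161 and 170 CPM in WT and 202, 145 and 146 CPM in *grh-1* OEx (0.03). Both sets of groups overlapped.

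Ribonucleotide reductase, which makes deoxynucleotides, is encoded by *rnr-1* and *rnr-2*. The large subunit gene *rnr-1* had 482, 432 and 724 CPM in WT and 489, 586 and 511 CPM in *grh-1* OEx. The small subunit gene *rnr-2* had 888, 804 and 925 CPM in WT and 945, 717 and 869 CPM in *grh-1* OEx. Per length *rnr-2* at 618 CPM per kb was above *rnr-1* at 211, with no overlap between their libraries. Both had a log2 fold change of -0.05.

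WT replicate 3 stood apart from the other libraries. The first principal component of all genes tested, with 51.9% of the variance, placed it at one end, and its TMM factor was 0.846, against 1.01 to 1.07 in the others. Markers of spermatogenesis (10 genes) summed to 132 CPM in this library and to between 4.59 and 19.1 CPM in the others. The 8 oocyte markers summed to 16286 CPM, against 9470 to 12533 CPM, and the 6 intestine markers to 56569 CPM, against 24717 to 46148 CPM. Most of the intestine sum came from *vit-2* and *vit-6*, at 26630 and 29427 CPM in WT replicate 3. *vit-2*, *ges-1* and *act-5* were highest in this library, but *vit-6* (32359 CPM), *elt-2* and *ifb-2* were highest in *grh-1* OEx replicate 2. The 8 germline markers summed to 3160 CPM in WT replicate 3, against 2152 to 2638 CPM, and none of the 10 sperm, 8 oocyte, 6 intestine or 8 germline markers was at 0 in all libraries. Their part in the values of the replication genes was not tested. In RNA of whole nematodes, fewer cells of a type and less RNA per cell cannot be told apart.

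In WT replicate 3, 23 of the 32 replication genes were above both other WT libraries, against 39.98% of all genes tested. It was the highest of all 6 libraries for 15 replication genes, against 27.3% of all genes, and for 5 of the 6 MCM genes. 7 replication genes were below both other WT libraries there (*orc-4*, *orc-5*, *psf-1*, *psf-3*, *sld-5*, *pole-2* and *rfc-4*), as were 39.4% of all genes, and *psf-2* and *pri-1* lay between. Against the mean of the other WT libraries, WT replicate 3 was at 1.65 times for *rfc-1*, 1.603 for *mcm-3* and 1.58 for *rnr-1*, and at 0.831 times for *pole-2* and 0.871 for *psf-1*. The share of all counts taken by the 32 genes in WT replicate 3 was 0.711%, inside the range of the other libraries.

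The balance of MCM to GINS transcripts varied between libraries. The ratio of summed MCM to summed GINS levels was 6.15, 6.54 and 9.96 in WT replicates 1 to 3 and 8.40, 8.34 and 5.90 in *grh-1* OEx replicates 1 to 3. The groups overlapped, with the highest ratio in WT replicate 3 and the lowest in *grh-1* OEx replicate 3.

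**Figure D4:**
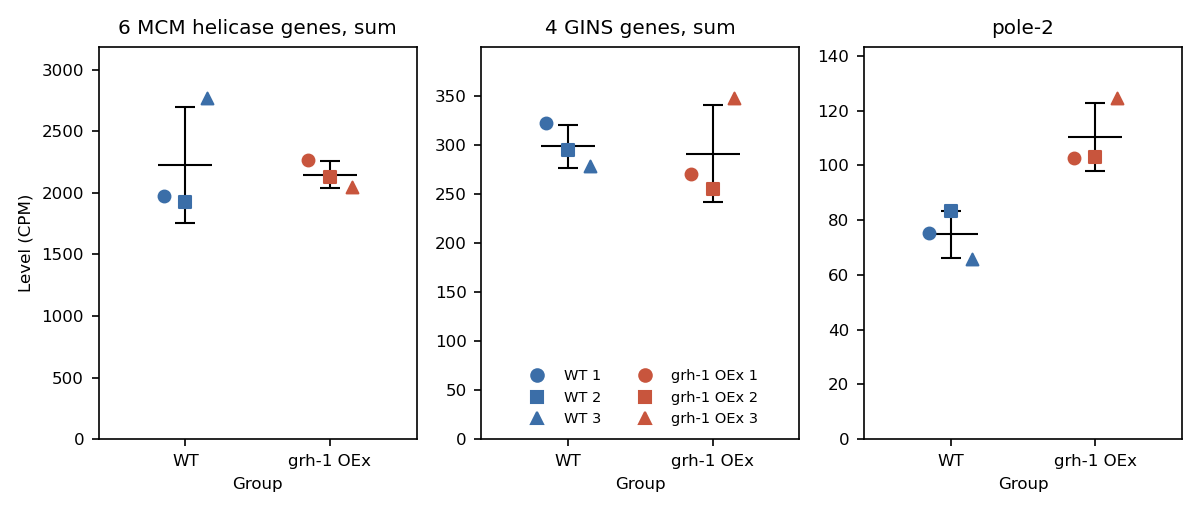
Level in CPM (y axis, from 0) of the summed 6 MCM genes, the summed 4 GINS genes and *pole-2*, by group, with 1 marker per library and black bars for the mean ± SD of 3 libraries. WT replicate 3 is the highest WT library at 2770 CPM for MCM and the lowest at 278 CPM for GINS and 65.9 CPM for *pole-2*, and only for *pole-2* do the groups not overlap.

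The GINS genes are among the shortest of the 32 and the MCM genes among the longest, and length moved with these deviations. Across the 32 genes the deviation of a library from the mean of the 6 related to annotated transcript length with Spearman's rho of -0.79, -0.39 and 0.48 in WT replicates 1 to 3 and 0.35, 0.56 and -0.35 in *grh-1* OEx replicates 1 to 3. The same relation over all genes tested was -0.42, -0.16 and 0.25 in WT and 0.34, 0.24 and -0.26 in *grh-1* OEx, with the same sign in each library. These are relations across genes that share each library and are no replicates. In WT replicate 3 the deviation also related to GC content, at 0.69 across the 32 genes and 0.46 across all genes tested. The 23 genes above both other WT libraries had a median length of 1903 bases and the 7 below a median of 1041 bases.

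**Figure D5:**
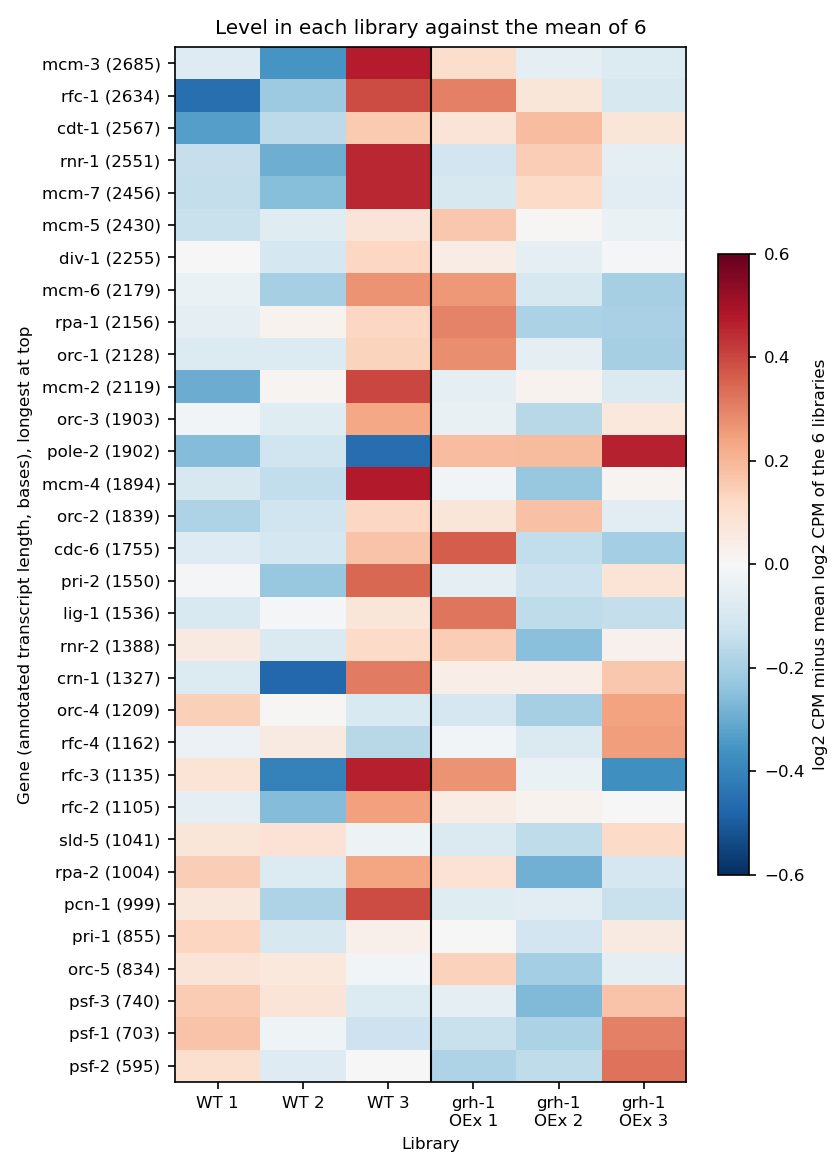
Log2 CPM of each replication gene in each of the 6 libraries minus its mean over the 6 (red above, blue below), with genes ordered by annotated transcript length in bases from *mcm-3* (2685) to *psf-2* (595). WT replicate 3 is red for most long genes, and *pole-2* is the row with blue in all 3 WT and red in all 3 *grh-1* OEx libraries.

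Without WT replicate 3, the median log2 fold change of the 32 genes was 0.08 instead of -0.03 and 22 genes instead of 12 were above 0, but again none was called higher or lower by edgeR. The median over all genes tested was -0.004 in this fit and -0.01 with all libraries. Without WT replicate 3, 4 replication genes had an unadjusted p under 0.05, *pole-2* at 0.47 (adjusted p = 0.311), *rfc-1* at 0.43 (0.403), *cdt-1* at 0.35 (0.479) and *crn-1* at 0.34 (0.557). The share of all genes under that p was not counted for this fit, so that these 4 have no background beside them. The value of *pole-2* stayed between 0.47 and 0.70 when each library was left out in turn. With offsets for length and GC content, an alternative chosen after seeing the data, *pole-2* was at 0.54 (adjusted p = 0.145) and the median of the 32 genes at -0.02.

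Other genes of S phase were read beside the replication genes, from lists that had been drawn up by function. Over all genes tested, edgeR called 0.146% higher and 0.298% lower, and 6.62% had an unadjusted p under 0.05. Counts of 0 or 1 in the short lists here and below lie near these shares. Of 20 further fork genes tested, 0 were called in either direction by edgeR and 0 had an unadjusted p under 0.05 (median 0.05). The smallest p among them belonged to *mus-101* (0.19), *rpa-4* (-0.16), *tim-1* (0.13) and *dna-2* (0.15), which encode a TopBP1 homologue, an RPA-like protein, a Timeless homologue and a nuclease helicase. Of 7 other nucleotide supply genes 0 were called and 0 had an unadjusted p under 0.05 (median -0.03), with *ndk-1*, a nucleoside diphosphate kinase gene, at -0.27, the cytidine deaminase genes *cdd-2* and *cdd-1* at -0.12 and -0.14, and the dUTPase gene *dut-1* at 0.05.

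Of 28 cell cycle regulators of S phase 0 were called by edgeR and 1 had an unadjusted p under 0.05 (median 0.04). This was *cki-1*, an inhibitor of cyclin-dependent kinases that holds cells in G1, at 10.1 CPM in WT and 14.7 CPM in *grh-1* OEx on average (0.55, standard error 0.17, adjusted p = 0.388) with groups that did not overlap. The next were *dpl-1* (0.21) and *efl-1* (0.12), the DP and E2F genes of the fly and mammalian scheme, and the phosphatase gene *cdc-25.2* (-0.15). Of 26 checkpoint and repair genes 0 were called and 0 had an unadjusted p under 0.05 (median 0.04), with *chk-1* at -0.23, *dog-1* at 0.19, *rev-1* at 0.21 and *xpf-1* at 0.25. The groups of *chk-1* did not overlap either, at 114 CPM in WT and 97.0 CPM in *grh-1* OEx on average. Such a separation was seen in 9.53% of all genes tested.

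The core histone genes, whose transcripts are made in S phase to package new DNA, did not follow the replication genes. Of 67 listed, 65 were found, and 23 of these had 0 counts in all libraries. The 29 that passed the filter on low counts were tested, some at low levels, such as *his-45* at 1.67 CPM in WT on average. Of these 29, 24 were called lower and 0 higher by edgeR, and the median was -2.72. The 65 core histone genes found together summed to between 539 and 664 CPM in WT and between 188 and 190 CPM in *grh-1* OEx. The genes with the smallest p were *his-61* (-3.46), *his-67* (-3.51), *his-62* (-2.91) and *his-60* (-2.83). Most core histone transcripts end in a stem loop in place of a poly(A) tail, the libraries were made from poly(A) RNA, and near-identical copies can share reads, so that the single values are uncertain. The 8 germline markers, which include *glp-1* and *gld-1* of the mitotic and meiotic germline, overlapped between the groups at 2152 to 3160 CPM in WT and 2258 to 2638 CPM in *grh-1* OEx, and their median was 0.01. The sperm markers had 7 genes tested, all below 0 with a median of -2.22, of which 0 were called by edgeR and 4 had an unadjusted p under 0.05, and the groups overlapped in each of them, with WT replicate 3 the highest library. Markers of other tissues overlapped between the groups as well, with 8 embryo markers at 31.7 to 34.4 CPM in WT and 33.03 to 43.7 CPM in *grh-1* OEx, and 5 epidermis markers at 212 to 364 CPM and 274 to 385 CPM. Of the 7 embryo markers tested 6 had a log2 fold change above 0 (median 0.24), as had all 5 epidermis markers (median 0.21). The medians of the muscle and neuron markers were -0.01 and -0.08. The 5 muscle markers summed to 1211 to 1873 CPM and 1374 to 1603 CPM, the 6 neuron markers to 226 to 278 CPM and 214 to 269 CPM, and 0 genes of these embryo, epidermis, muscle and neuron lists were called by edgeR or had an unadjusted p under 0.05.

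On the genome, 8 of the 32 replication genes lie on chromosome I, 4 on II, 10 on III, 5 on IV and 5 on V, and 0 on X, which holds 14.9% of all genes tested. Of the 32, 12 share exon bases with a protein-coding gene on the opposite strand in the Ensembl annotation. The libraries do not mark the strand, so that reads from such shared bases cannot be told apart, most of all for *psf-2*, which shares 65 of its 612 exon bases with *F31C3.6*, and *mcm-3*, which shares 73 of 2685 with *C25D7.16*. *pole-2* shares none.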

How the data were processed

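RNA of whole nematodes was sequenced from 3 WT and 3 *grh-1* OEx libraries, described by the study as independent biological samples. The authors enriched poly(A) RNA (TruSeq v2, unstranded), trimmed reads, mapped them to Ensembl WBcel235 by STAR and counted them per gene by featureCounts of Subread, and the processing notes also name FastQC and DESeq2, all without versions. The deposited values used here are raw read counts per gene of 20362 genes, with 14409044 to 25535026 counts per library. The deposited normalized counts and FPKM, and the columns of the authors' own comparison (log2 ratio, p-value and adjusted p), were not used. Gene coordinates, transcript lengths and GC content are those of the deposited annotation columns.

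Genes were filtered by filterByExpr (minimum count 10, minimum total 15), normalized by TMM and tested with glmQLFit and glmQLFTest of edgeR 4.0.16 under R 4.3.3, and the threshold was 0.05 for p after Benjamini-Hochberg adjustment across the 13736 genes tested. Intervals are 95% intervals of this fit. The fit was also tested on simulated data. The 32 genes, the other lists and the stretch of chromosome IV were chosen with earlier results of these data known. Every replication gene is named at least once. Values by library are given for all MCM genes, for the highest and the lowest gene per length of each other role, for the 3 genes with the smallest p and for any gene in the stretch, and of each other list up to 4 genes with the smallest p are named. A few more are given by library, chosen after their values were seen.

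The alternatives were a block for the replicate number, leaving out single libraries, requiring 10 counts or more in all libraries, leaving out the filter, upper-quartile or RLE factors, limma-voom (limma 3.58.1) and DESeq2 1.42.0. Offsets for length and GC content were added after seeing the data. Copies of a library were looked for by chi-square tests within each group, and with 16.4 or more per degree of freedom none was found. Overlaps with other genes and the place of the motif match were read from the Ensembl annotation. The list of motif matches gives the same start as that annotation for 46 of 130 genes and a different start for the others. Its coordinates were taken as WBcel235, which this comparison does not settle. Sequences of promoters and proteins were not used here.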

Additional observations from a re-analysis of the deposited data

How the results depend on the processing

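Of 14 alternatives, only DESeq2 called a replication gene, with 1, *pole-2*, higher (0.58). All genes called higher were 20 and lower 41, against 60 and 89 with DESeq2 and 34 and 63 with offsets for length and GC content, which were chosen after seeing the data. With the replicate number as a block 10 genes were called higher. Replicates of the same number did not clearly deviate together (r = 0.23, -0.01 and -0.12). With 3 libraries a group these values cannot decide whether the numbers pair the samples, which the labels do not say. Under this block *pole-2* was at 0.56 (adjusted p = 0.671 by edgeR). When each library was left out in turn, 1 to 41 genes were called higher and 10 to 212 lower. The lowest count higher came without *grh-1* OEx replicate 1 and the highest without WT replicate 3. The lowest count lower came without *grh-1* OEx replicate 2 and the highest without WT replicate 1. The median log2 fold change of the replication genes then ran from -0.064 to 0.076, with the highest value without WT replicate 3.

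Of 448 values of single replication genes under the alternatives, 62 changed sign over 21 genes, none of them called, and the cause was not tested. With DESeq2 and with RLE factors these were *mcm-6* (0.0036 in both), *psf-1* (0.026 in both) and *div-1* (0.010 in both). With no filter they were *mcm-6* (0.031), *orc-4* (0.022), *psf-1* (0.048), *div-1* (0.036), *pri-1* (0.0066), *rpa-1* (0.0081), *rnr-1* (0.0072) and *rnr-2* (0.0036). *psf-1* was at 0.000185 with at least 10 counts in every library and at 0.022 with the offsets, where *orc-1* was at -0.013. *psf-2* was at -0.011 with limma-voom, -0.0031 with upper-quartile factors and -0.011 with the block.
When each library was left out in turn, the log2 fold change ran for *orc-4* from -0.15 to 0.085, *psf-1* from -0.15 to 0.13, *psf-3* from -0.19 to 0.011, *div-1* from -0.038 to 0.045, *pri-1* from -0.057 to 0.061 and *rnr-2* from -0.14 to 0.058. It ran for *rfc-2* from -0.025 to 0.17, *rpa-1* from -0.22 to 0.0698, *mcm-2* from -0.21 to 0.092, *mcm-3* from -0.17 to 0.20, *mcm-4* from -0.23 to 0.049 and *mcm-6* from -0.17 to 0.12. Over the same settings it ran for *mcm-7* from -0.14 to 0.18, *pri-2* from -0.15 to 0.081, *rfc-3* from -0.28 to 0.12, *rnr-1* from -0.13 to 0.21, *orc-1* from -0.11 to 0.16 and *cdc-6* from -0.18 to 0.16. The remaining ranges were, for *lig-1* from -0.14 to 0.14, *orc-5* from -0.17 to 0.0038 and *psf-2* from -0.15 to 0.11.

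Each replication gene had 606 or more counts in each library. The 3 libraries a group limit the precision, as the intervals given above show, and 1 line stands for *grh-1* OEx.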
